A study of Mus musculus with 2 samples.

Results

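Chromatin loops of middle range that lie wholly inside the body of a single protein-coding gene were examined in mouse cortex after a focal stroke or a sham operation. A loop is a pair of DNA segments, its anchors, that were joined in Hi-C (proximity ligation followed by sequencing of paired ends) more often than their surroundings. A loop was taken when its anchor midpoints were 100 to 1000 kb apart on an autosome, when both midpoints lay in the same gene, and when no end of any protein-coding gene came within 2.5 kb of either anchor. Such loops are called intragenic below. The sham list held 635 of them among 10680 autosomal mid-range loops and 14779 listed loops, and the list after middle cerebral artery occlusion (MCAO) held 585 among 11444 and 15592. In the MCAO group a filament blocked the artery for 1 h and cortex of the operated side was taken 6 h later. The sham group had the same anaesthesia and surgery with no filament advanced and was also sampled at 6 h. Strain, age, sex and genotype were not given in the labels, which mention 3 cortices in each group and do not say at which step they were pooled. With 1 loop list per group, no difference between MCAO and sham has a replicate check and no test was made between them.

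Most protein-coding genes are short, but genes of neurons that encode adhesion molecules, ion channels, receptors and their scaffolds can stretch over very long introns. Inside such a gene, contacts can join intronic enhancers, alternative promoters and sites held by the insulator protein CTCF and the cohesin ring. Long genes often have several transcription starts, and the inner starts give shorter isoforms that begin in what is an intron of the longest transcript.

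Genome sequence under the anchors was not used here, but RefSeq gives the 300 bases around annotated starts (250 before and 50 after, GRCm38.p6). Inner starts of the host gene lay in an anchor in both libraries for 11 genes with a loop found in both lists. The windows of the 5 with most paired-end tags (PETs, the read pairs that join the anchors) are shown, as annotated elements within these anchors. An anchor is far wider than a window (74.0 kb in sham and 97.8 kb in MCAO at Prkg1). The contact is therefore not placed at the start itself. Each is written 5′ to 3′ on the strand of the gene, with matches to the GC box (GGGCGG on either strand, overlapping matches counted separately) in capitals. The Prkg1 window is chr19:31664321-31664620 on the minus strand, 101 kb inside the gene. The Pde4b window is chr4:102421305-102421604 on the plus strand, 334 kb inside. The Cacna1c window is chr6:119108446-119108745 on the minus strand, 88.9 kb inside. The Elmo1 window is chr13:20472740-20473039 on the plus strand, 382 kb inside. The Adgrb3 window is chr1:25829658-25829957 on the minus strand, 5.07 kb inside.
Prkg1: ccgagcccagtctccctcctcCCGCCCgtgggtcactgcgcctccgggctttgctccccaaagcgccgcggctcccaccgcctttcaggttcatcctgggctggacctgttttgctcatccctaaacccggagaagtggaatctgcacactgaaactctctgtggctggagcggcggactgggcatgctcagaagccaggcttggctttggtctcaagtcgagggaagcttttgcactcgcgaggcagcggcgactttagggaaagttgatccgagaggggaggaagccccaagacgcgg
Pde4b: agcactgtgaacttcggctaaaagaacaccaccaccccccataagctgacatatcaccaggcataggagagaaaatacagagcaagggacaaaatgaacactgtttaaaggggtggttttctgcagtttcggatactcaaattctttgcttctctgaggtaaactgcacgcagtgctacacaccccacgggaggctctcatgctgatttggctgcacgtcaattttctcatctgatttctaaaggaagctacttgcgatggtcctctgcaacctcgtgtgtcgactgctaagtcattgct
Cacna1c: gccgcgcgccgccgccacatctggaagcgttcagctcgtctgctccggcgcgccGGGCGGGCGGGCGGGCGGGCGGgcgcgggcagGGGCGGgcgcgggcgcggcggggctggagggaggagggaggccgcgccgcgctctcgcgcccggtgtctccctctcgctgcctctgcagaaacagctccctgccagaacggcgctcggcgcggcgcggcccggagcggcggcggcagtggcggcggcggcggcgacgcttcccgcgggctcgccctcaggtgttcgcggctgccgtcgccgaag
Elmo1: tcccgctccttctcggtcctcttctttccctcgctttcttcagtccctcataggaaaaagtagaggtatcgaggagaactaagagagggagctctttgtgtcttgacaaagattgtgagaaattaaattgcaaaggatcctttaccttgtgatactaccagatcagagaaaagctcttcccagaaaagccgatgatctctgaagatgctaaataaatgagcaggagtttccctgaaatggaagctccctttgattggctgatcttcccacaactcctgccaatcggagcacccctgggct
Adgrb3: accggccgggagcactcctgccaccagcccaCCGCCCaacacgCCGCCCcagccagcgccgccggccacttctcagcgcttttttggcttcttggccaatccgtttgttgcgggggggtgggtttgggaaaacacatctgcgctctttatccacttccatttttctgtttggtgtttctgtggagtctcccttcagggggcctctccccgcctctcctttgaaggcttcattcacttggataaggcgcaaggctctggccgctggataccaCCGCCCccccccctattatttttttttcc

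These windows differed widely in composition. The Cacna1c window was 81.3% G and C with 57 CpG dinucleotides and 6 GC boxes. The Adgrb3 window was 59.0% G and C with 3 GC boxes, and the Prkg1 window 62.3% with 1. The Pde4b and Elmo1 windows were 47.0% and 46.0% G and C and held no GC box, and Elmo1 had 2 CCAAT boxes (CCAAT on either strand). Across all 32851 promoter windows 35.7% held a GC box and 37.4% a CCAAT box, and across the 20085 windows of autosomal protein-coding genes 47.0% and 38.1%. Across the 259 inner starts of the genes that held intragenic loops these shares were 32.4% and 35.1%. A match is a description of the letters and does not show binding.

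Sequencing depth was 34974213 PETs in sham and 40550536 in MCAO, so MCAO was 1.16 times deeper, and no loop under 10 PETs stands in either list. All intervals are exact 95% intervals and cover counting error in these libraries only. In a bulk tissue, fewer cells with a contact and fewer contacts per cell cannot be told apart. The lists hold no expression values, so the tissue label was not checked against markers.

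Intragenic loops were a small class in both libraries and were less numerous after MCAO relative to mid-range loops as a whole. They made up 5.95% of mid-range loops in sham (5.50 to 6.41) and 5.11% in MCAO (4.72 to 5.53). The ratio of their number, MCAO over sham, was 0.921 (0.822 to 1.03), and per PET sequenced it was 0.795 (0.709 to 0.890). Mid-range loops outside single genes that also lacked a gene end at their anchors, 4379 in sham and 3893 in MCAO, had a ratio of 0.889 (0.851 to 0.928). Loops with a gene end at an anchor, 5666 and 6966, had a ratio of 1.23 (1.19 to 1.27). The intragenic loops thus had a ratio whose interval overlapped that of other loops without gene ends and lay below that of loops at gene ends.

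The lower number of intragenic loops in MCAO depended on which PET minimum was used. Most were weakly supported, with a median of 12 PETs in both libraries, and 47.6% of the sham and 43.9% of the MCAO loops had 10 or 11 PETs. At a minimum of 15 PETs the numbers were 190 in sham and 193 in MCAO, a ratio of 1.02 (0.827 to 1.25). With the MCAO minimum raised to 12 PETs, the smallest whole number at least equal to 10 sham PETs at the same depth, 328 MCAO loops were left and the ratio was 0.517 (0.451 to 0.591). Loops away from gene ends gave 0.520 under that minimum and loops at gene ends 0.854. Over all distances together, the ratio thus stayed below that of loops at gene ends and close to that of other loops without them.

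Intragenic loops were shorter and had narrower anchors than other mid-range loops. Their median distance was 205 kb in sham (190 to 228) and 196 kb in MCAO (178 to 215), against 437 and 375 kb for other loops without gene ends. The median width of the wider anchor was 18.4 kb in sham and 17.8 kb in MCAO, against 33.2 and 31.3 kb. The rule itself favours short loops, since both anchors must fall within a gene. Between 100 and 200 kb the lists held 308 sham and 300 MCAO intragenic loops, a ratio of 0.974 (0.828 to 1.15). The ratio was 0.947 (0.70 to 1.28) between 200 and 300 kb and 1.08 (0.829 to 1.41) between 300 and 500 kb. Between 500 and 1000 kb they held 121 and 75, a ratio of 0.620 (0.458 to 0.834). The lower ratio in the longest class was also seen in other loops without gene ends, 1788 against 1289, a ratio of 0.721 (0.671 to 0.775), while loops at gene ends of that length had a ratio of 1.09 (1.02 to 1.16).

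**Figure D1:**
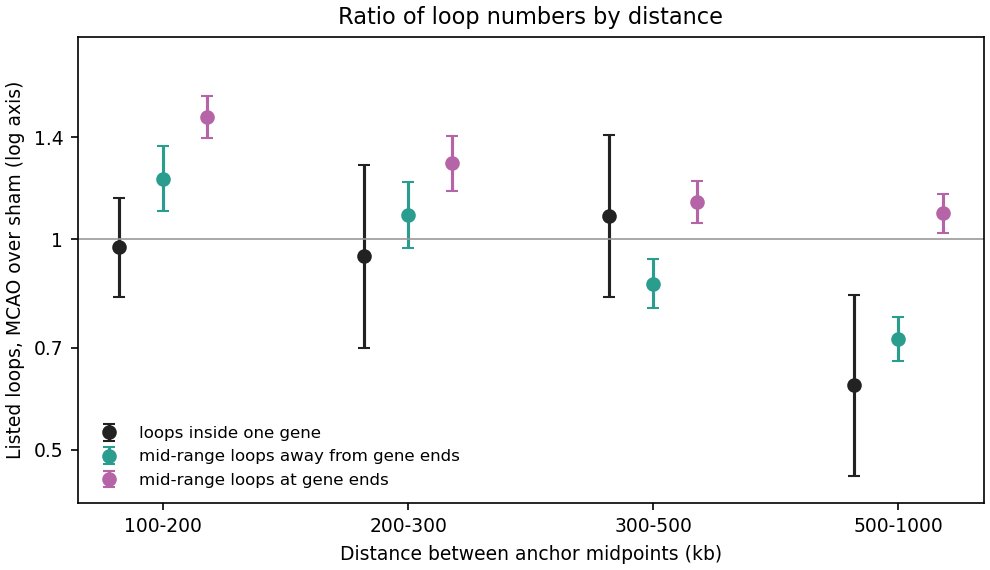
Ratio of the number of listed loops, MCAO over sham (log axis), by distance between anchor midpoints in kb, for intragenic loops (black), other mid-range loops without a gene end at their anchors (green) and loops at gene ends (purple). Points are ratios of counts from 1 library per group at the listing minimum of 10 PETs, and bars are exact 95% intervals for counting error. The black points are 0.974, 0.947, 1.08 and 0.620 from the shortest class to the longest, so that the last alone lies clearly below 1, and the purple points are above 1 in each class.

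The intragenic loops lay in 456 genes, which is 19.7% of the 2313 autosomal protein-coding genes of at least 100 kb. Sham loops lay in 328 genes and MCAO loops in 311, and 183 genes had them in both libraries, which is 55.8% of the sham and 58.8% of the MCAO genes. The shortest of these genes was 145 kb long. The median length was 491 kb for sham and 472 kb for MCAO, against 172 kb for all genes of at least 100 kb. Genes with loops in both libraries were longer than those with loops in 1, with medians of 610 and 333 kb. A single loop was found in 192 genes in sham and 178 in MCAO, and 3 or more in 75 and 72, which together held 323 and 286 loops.

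The share of genes with a loop rose from class to class of gene length, and the longest genes also had more loops per unit of length. Of 1622 genes of 100 to 250 kb, 2.65% had a loop in sham and 3.21% in MCAO. Of 475 genes of 250 to 500 kb these shares were 26.5% and 24.6%, and of 111 genes of 500 to 750 kb 60.4% and 48.6%. Of 55 genes of at least 1000 kb, 52 had a loop in each library, 94.5%. A longer gene has room for more pairs of anchors within the distance limits. Per Mb of gene body the shortest class had 0.188 loops in sham and 0.229 in MCAO, and the longest 2.98 and 2.49. The ratio of loop numbers was 1.22 (0.809 to 1.84) in the shortest class and 0.835 (0.682 to 1.02) in the longest, and these intervals overlap.

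**Figure D2:**
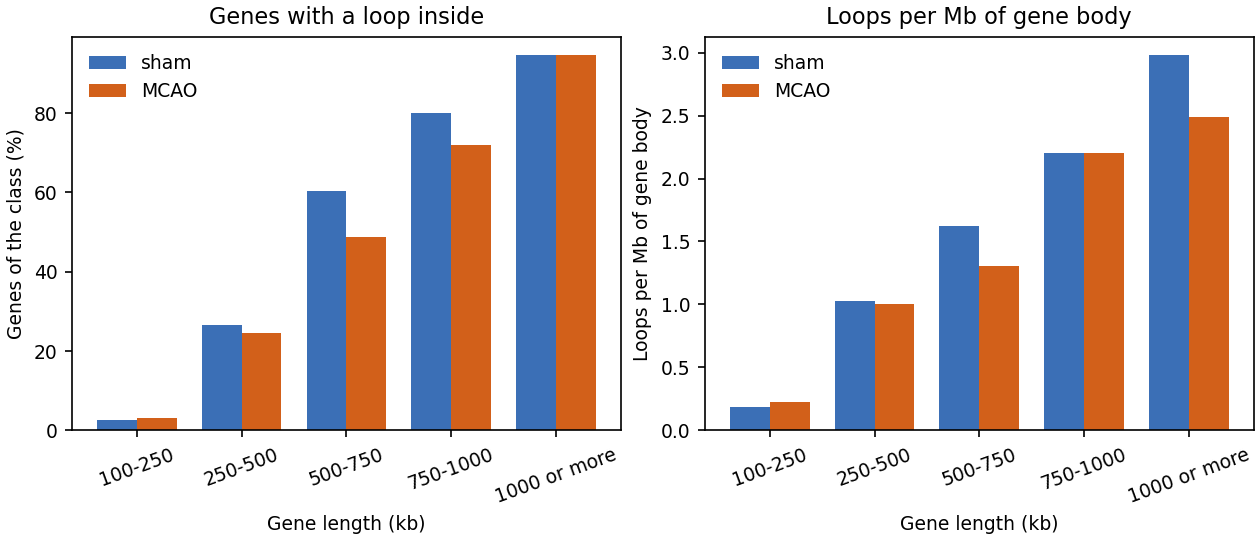
Autosomal protein-coding genes of at least 100 kb by length class in kb, with the share that held an intragenic loop in percent (left) and the number of loops per Mb of gene body (right), for the sham (blue) and MCAO (orange) libraries. Bars are single values from 1 library per group with no error over replicates. In the longest class 94.5% of genes held a loop in sham and 94.5% in MCAO, with 2.98 loops per Mb in sham and 2.49 in MCAO.

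The genes with most intragenic loops encode synaptic scaffold and adhesion proteins and a few large genes of other function. Dlg2, which encodes the postsynaptic scaffold PSD-93 (chr7:90476188-92449246, 1973 kb), had 10 loops in sham and 9 in MCAO. Lsamp, a cell surface adhesion protein of the limbic system, had 9 and 7. Macrod2, which encodes a protein that removes ADP-ribose from other proteins, had 7 in each. Cntnap2, a neurexin-related protein near the nodes of axons, had 7 and 5, and Nrxn3, a presynaptic neurexin, had 6 and 4. These genes had similar numbers as listed. With the MCAO minimum of 12 PETs the numbers were 10 and 5 in Dlg2, 9 and 3 in Lsamp, 7 and 5 in Macrod2, 7 and 3 in Cntnap2 and 6 and 3 in Nrxn3, so the similarity depended on the minimum. Ntm, the adhesion protein neurotrimin, had 7 and 4, Robo1, a receptor for the guidance cue Slit, had 5 and 6, and the ephrin receptor gene Epha6 had 5 in each. Fhit, a fragile site gene encoding a nucleotide hydrolase, had 7 and 3, and Arhgap26, a regulator of small GTPases, had 4 and 6. These counts leave out loops of this range inside the gene with a gene end at an anchor. Such loops numbered 0 and 3 in Lsamp, 1 and 4 in Ntm, 1 and 3 in Epha6 and 0 and 1 in Dlg2. Macrod2, Cntnap2, Nrxn3 and Arhgap26 had 1 and 1 each, and Robo1 and Fhit none. The lower MCAO counts in Lsamp and Ntm thus hold only for loops without a gene end.

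A difference of at least 3 loops between the libraries was found in 37 genes. MCAO had at least 3 more in 12 genes, 0.519% of genes of at least 100 kb, and sham in 25, 1.08%. Of all 456 genes 181 had more in MCAO, 201 more in sham and 74 equal numbers. With the MCAO minimum of 12 PETs, 3 genes had at least 3 more in MCAO and 37 in sham. At 15 PETs or more, only 2 and 4 genes had such a difference, so most of these differences rested on loops of 10 to 14 PETs. Counted at that minimum, 7 of the 12 genes still had more loops in MCAO, 3 had equal numbers and 2 had more in sham. Of the 25, 17 still had more in sham and 8 had equal numbers. This recount used part of the same loops that picked the genes. For 6 of the 12 and 11 of the 25 the other library had no loop, so these could not turn.

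**Figure D3:**
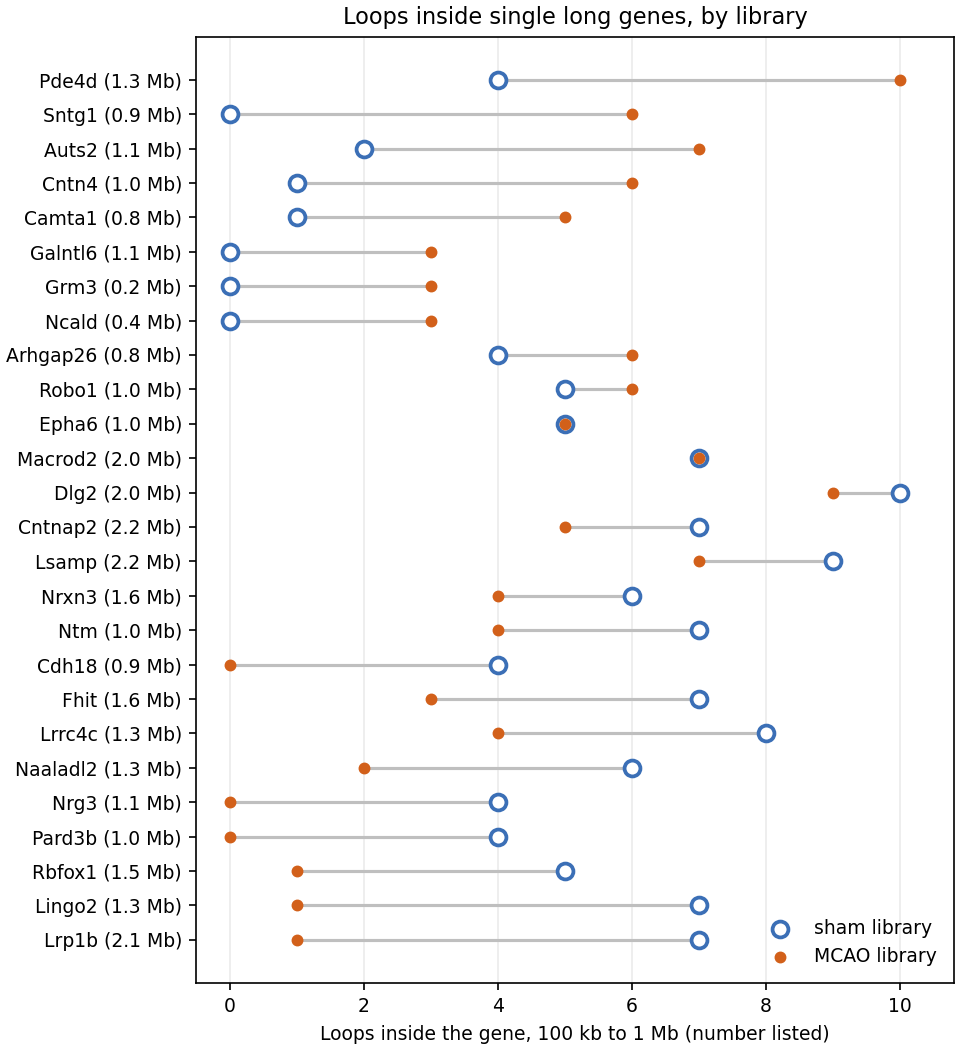
Number of intragenic loops in the sham (open blue circles) and MCAO (filled orange circles) libraries for genes with most loops and genes that differed most either way, with gene length in Mb. Each circle is a count from 1 library. Pde4d has 4 loops in sham and 10 in MCAO at the top, and Lrp1b has 7 and 1 at the bottom.

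The genes with the largest excess in MCAO were of mixed function. Pde4d, a phosphodiesterase that breaks down cyclic AMP (chr13:108654177-109955969, 1302 kb), had 4 loops in sham and 10 in MCAO. Sntg1, which encodes the neuronal scaffold protein syntrophin gamma 1, had 0 and 6. Auts2, a nuclear protein involved in neuronal gene regulation, had 2 and 7, and Cntn4, an axonal contactin, had 1 and 6. Camta1, a calmodulin-binding transcription activator, had 1 and 5. Galntl6, Grm3 (a metabotropic glutamate receptor) and Ncald (the calcium sensor neurocalcin delta) had 0 and 3 each. The rule leaves out loops of this range inside the gene with a gene end at an anchor. They numbered 3 and 1 in Sntg1, 2 and 3 in Cntn4 and 1 and 1 in Galntl6. Grm3 had 1 and 0 of them, Ncald 0 and 2, and Pde4d, Auts2 and Camta1 none. The share of Pde4d loops that were listed in MCAO, 71.4%, had an interval of 41.9 to 91.6 and that of Cntn4, 85.7%, one of 42.1 to 99.6. At 15 PETs or more Pde4d had 2 loops in each library, Sntg1 and Auts2 0 and 2, Cntn4 0 and 3 and Camta1 1 in each. Of those 3 Cntn4 loops, the ones of 16 and 28 PETs had a sham partner of 97 PETs that was not itself an intragenic loop. The Cntn4 counts therefore do not show that sham lacked these contacts. With the MCAO minimum of 12 PETs the difference in Auts2 and in Camta1 was 0.

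The genes with the largest excess in sham were also of mixed function. Lingo2, a neuronal leucine-rich repeat membrane protein (chr4:35696778-36951744, 1255 kb), had 7 loops in sham and 1 in MCAO. Lrp1b, a large receptor of the LDL receptor family, also had 7 and 1. Rbfox1, a neuronal splicing factor, had 5 and 1, and Naaladl2 6 and 2. Cdh18 (a cadherin), Nrg3 (a neuregulin ligand of ErbB4) and Pard3b (a polarity protein) had 4 and 0 each. Of the left-out loops inside the gene with a gene end at an anchor, Lingo2 had 2 and 3 and Lrp1b 3 and 1. Nrg3 had 0 and 2 of them, Cdh18 and Pard3b 0 and 1 each, Rbfox1 1 and 0 and Naaladl2 none. The share of Lingo2 loops that were listed in MCAO, 12.5%, had an interval of 0.316 to 52.7. At 15 PETs or more Lingo2 and Rbfox1 had 3 and 0, Cdh18 and Pard3b 2 and 0, Lrp1b and Naaladl2 1 and 0, and Nrg3 had none in either library. That Lrp1b loop, of 16 PETs, had an MCAO partner of 53 PETs that was not itself an intragenic loop. The 2 other genes with at least 3 more sham loops at that minimum were Epha6, with 5 and 1, and Cdk14, with 3 and 0. The other gene with 3 more in MCAO was Trpm3, with 0 and 3. As listed, these genes had 5 and 5, 4 and 3, and 5 and 4. The Cdk14 sham loops of 16 and 19 PETs were matched to MCAO loops of 14 and 10 PETs. The Epha6 sham loops of 38 and 29 PETs each had an MCAO partner of 11 PETs. Part of these differences thus came from MCAO partners below 15 PETs.

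Other genes with a difference of at least 3 loops had smaller numbers. With more in MCAO these included Nckap5 (0 and 3), Nrg1 (2 and 5) and Pcdh15, a protocadherin (2 and 5). At 15 PETs or more Nckap5 had none in either library, and Nrg1 and Pcdh15 had 1 more in sham. With more in sham, the adhesion phosphatase gene Ptprd and the sarcoglycan gene Sgcz had 5 and 2 each, and Ank2, which encodes the membrane adaptor ankyrin-B, and the complement-related gene Csmd3 had 4 and 1 each. Cntnap5a, the tight junction gene Tjp1, the calcium-dependent phosphodiesterase gene Pde1a, the GABA receptor genes Gabrb1 and Gabrg3, Gmds, Ldlrad4 and D430041D05Rik had 3 and 0 each. Ank2 had 3 and 1 loops of 15 PETs or more and Sgcz 3 and 1, while Gabrb1, Gabrg3 and Pde1a had none in either library.

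Inside Pde4d the MCAO loops met at a few places. Anchors of 5 of its 10 MCAO loops overlapped in a stretch whose midpoints lay 564 to 577 kb from the gene start, and 4 had anchors at 689 to 696 kb. The sham list had loops at the second place, of 28 PETs (698 to 869 kb) and 10 PETs (692 to 926 kb), and none with an anchor at the first. Reciprocal matching paired the sham loop of 28 PETs with an MCAO loop of 10 PETs (696 to 853 kb), a log2 ratio of -1.70 per 1000000, and the summed anchor widths were 48.9 and 20.1 kb. The MCAO loop of 34 PETs at 693 to 893 kb had the same sham loop as its nearest partner. The 9 MCAO loops of Pde4d other than that of 34 PETs had 10 to 15 PETs.

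The other genes drawn show different layouts. In Dlg2, 5 sham loops overlapped at 947 to 972 kb from the gene start and 4 MCAO loops at 943 to 959 kb, so the same part of the gene held several anchors in both libraries. The Dlg2 sham loop of 36 PETs ran from 44 to 755 kb. In Sntg1 the 6 MCAO loops had 10 to 16 PETs and none had a partner in sham. In Lingo2 the 7 sham loops had 10 to 20 PETs, lay nested or crossing one another in the middle of the gene, and none had a partner in MCAO.

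**Figure D4:**
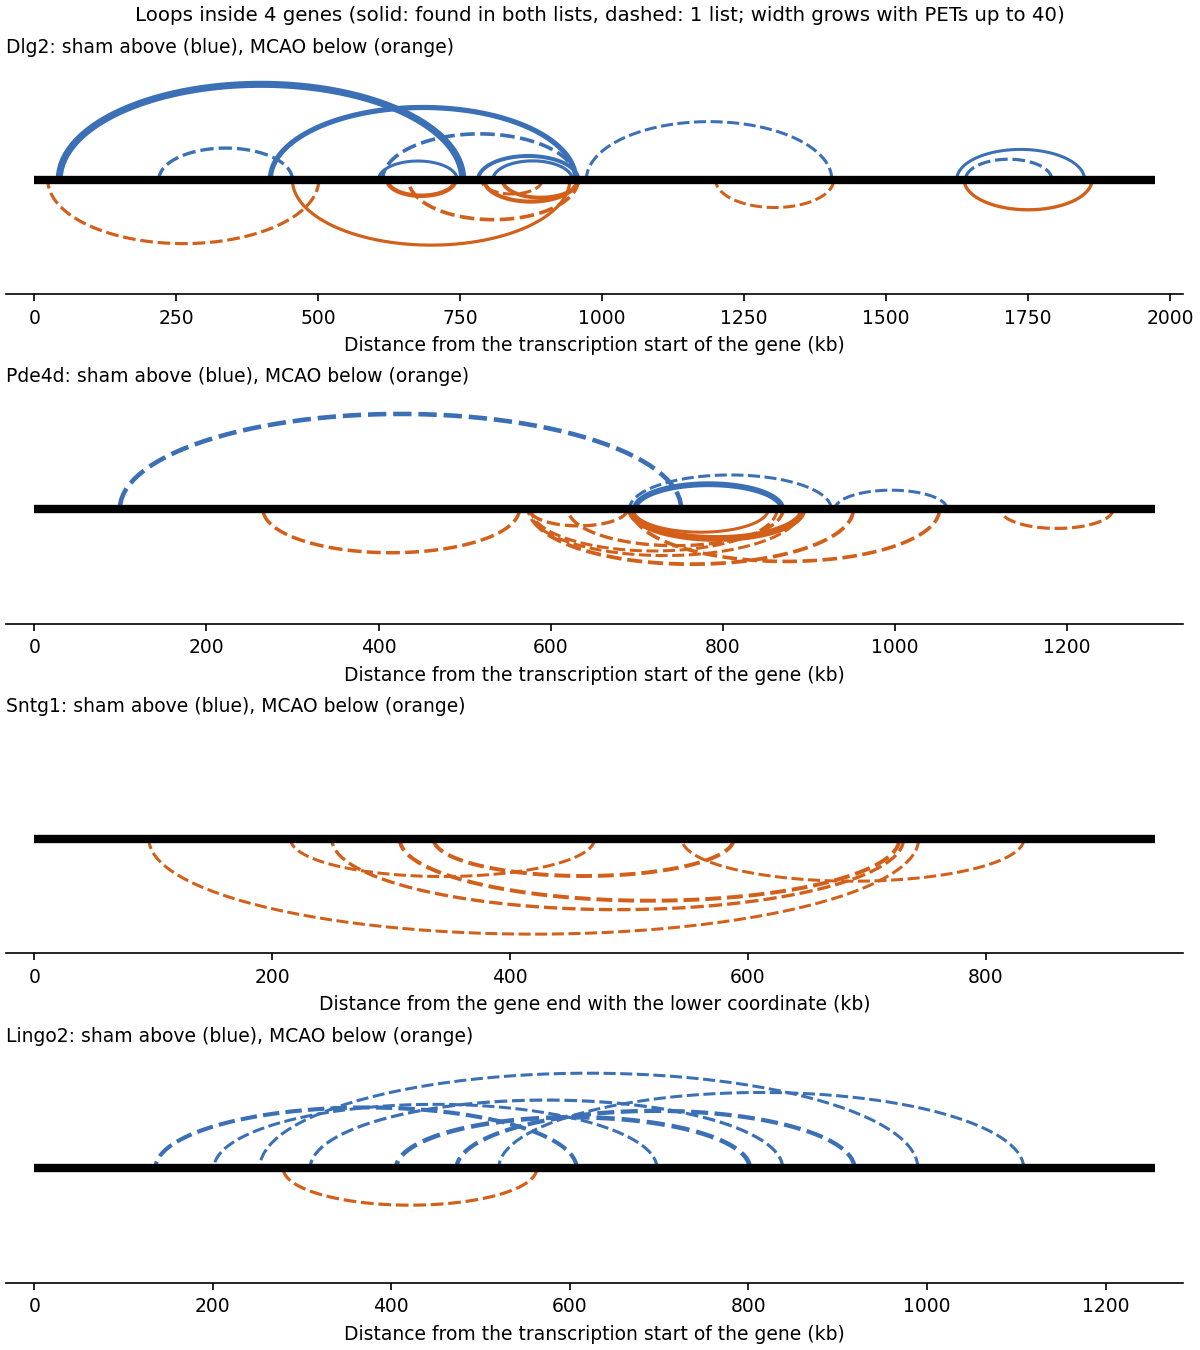
Intragenic loops of Dlg2, Pde4d, Sntg1 and Lingo2 as arcs between anchor midpoints in kb along the gene, with sham loops above (blue) and MCAO loops below (orange). Arc height grows with loop distance, line width grows with PETs up to 40, and solid lines mark loops found in both lists. Sntg1 has 6 arcs below and none above, and Lingo2 has 7 above and 1 below. Loops inside these genes with a gene end at an anchor are not drawn.

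The axon guidance receptors Robo1 and Epha6 had loops that reached across most of the gene in both libraries. In Robo1 all 5 sham loops, of 13 to 42 PETs, had an anchor that overlapped others at 905 to 949 kb from the gene start. The MCAO list had Robo1 loops of 24 PETs (326 to 957 kb), 17 PETs (584 to 949 kb) and 11 PETs (194 to 931 kb) ending in that part of the gene, and 3 others of 11 PETs each. In Epha6 the 5 sham loops had 23 to 39 PETs, and 4 of them overlapped at 866 to 926 kb. Of the 5 MCAO loops of Epha6, which had 11 to 19 PETs, a single one (71 to 944 kb) reached that part, and 3, this one included, overlapped at 71 to 89 kb. The count of intragenic loops in Epha6 was thus equal while their PETs and their places were not. Loops inside Epha6 with a gene end at an anchor, 1 in sham and 3 in MCAO, are left out of this comparison. With no window at gene ends the difference in Epha6 was -1, MCAO minus sham.

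Lsamp and Macrod2, with many loops in both libraries, showed little agreement loop by loop. In Lsamp the loop of 28 MCAO PETs at 1289 to 1861 kb matched the sham loop of 21 PETs at 1268 to 1843 kb, and no other Lsamp loop had a partner. The other 8 sham loops of Lsamp had 10 to 31 PETs and the other 6 MCAO loops 10 to 19. In Macrod2 the only matched loops were those of 10 sham PETs (606 to 1465 kb) and 16 MCAO PETs (564 to 1471 kb). In Dlg2, by comparison, 6 of 10 sham and 5 of 9 MCAO loops had a partner.

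Recurring anchors were common in genes with several loops. Of 690 pairs of sham loops in the same gene, 165 shared an overlapping anchor, 23.9% (20.8 to 27.3), and of 560 MCAO pairs 191 did, 34.1% (30.2 to 38.2). Pairs in a gene are not independent, so these intervals are narrower than the true uncertainty. The sham library had 5 loops at an anchor in Dlg2, Lrrc4c and Robo1, and the MCAO library in Pde4d. Among pairs without a shared anchor, 221 sham pairs crossed, 111 were nested and 193 lay side by side, and in MCAO these were 135, 77 and 157. Loops spanned a median of 39.3% of their gene in sham and 37.1% in MCAO, from 4.71% to 89.3% and from 5.44% to 90.4%. Where the strand was known (507 sham and 453 MCAO loops), anchors were spread along the gene, with 8.61% to 13.5% of anchors in each 10% of the gene length, and the most, 11.9% in sham and 13.5% in MCAO, at 80 to 90% of the way from start to end.

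Few intragenic loops were found again in the other list. A loop counted as shared if the other list held one whose midpoints were each no farther away than the width of the widest anchor. By this rule 103 sham loops, 16.2% (13.4 to 19.3), and 95 MCAO loops, 16.2% (13.3 to 19.5), were shared, against 29.6% and 28.2% of all mid-range loops. Other loops without gene ends were shared in 20.4% and 24.1%, and loops at gene ends in 38.1% and 31.4%. The partner was itself an intragenic loop for 84 of the 103 and 84 of the 95, and had a gene end at an anchor for 19 and 10. The partner of 1 MCAO loop, in Magi2, was of another kind.

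Sharing rose with support and was lower than elsewhere for narrow anchors. Among sham loops of 10 or 11 PETs 10.6% were shared, and among those of at least 20 PETs 34.5%. In MCAO these shares were 8.56% and 35.4%. Other loops without gene ends with at least 20 PETs were shared in 44.9% in sham and 46.9% in MCAO. With the wider anchor under 15 kb, 15.0% of sham and 12.4% of MCAO intragenic loops were shared, against 31.6% and 36.0% of other loops without gene ends. At 30 kb or more the shares were 15.7% and 17.1% against 15.9% and 20.0%. The share of genes with loops in both libraries, 55.8% and 58.8%, cannot be set against these shares. A gene counts there with any loop in each list, wherever it lies, which is a looser rule.

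The 79 loops matched to each other in both lists (reciprocally, both intragenic) had more PETs in MCAO about as often as in sham. Within pairs the log2 ratio per 1000000 PETs, MCAO over sham, ran from -2.62 to 1.88. MCAO had more PETs in 38 pairs and sham in 39, and each loop had to reach 10 PETs in its own list. Scaled to 1000000 PETs, the median log2 ratio, MCAO over sham, was -0.21 (-0.41 to -0.08), which is the value that equal raw PETs give at these depths and the same as the -0.21 over 2853 matched pairs of all mid-range loops. A value at least 2-fold higher in MCAO was found for 3 of 79 pairs and in sham for 14, against 245 (8.59%) and 549 (19.2%) of all pairs. The reads at their anchors, per kb and per 1000000, had a median log2 ratio of -0.12 (-0.21 to -0.07), and their part in the PET ratio was not tested. PETs are summed over anchors that were called in each list separately and can differ in width. In 68 of the 79 pairs the list with more PETs also had the wider anchors (both summed), in 9 the narrower, and in all 17 pairs at least 2-fold apart it had the wider. In those 17 the wider pair of anchors was a median 2.43 times the narrower, so the PET ratios below do not compare equal stretches of DNA.

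Prkg1, the cyclic GMP-dependent protein kinase, had a loop with strong support in both lists, 71 PETs in sham and 75 in MCAO, over 829 and 839 kb. Lrrc4c, the netrin-G ligand NGL-1, had the intragenic loop with most PETs in either list, with 154 sham PETs over 865 kb and 34 MCAO PETs over 859 kb. Its log2 ratio was -2.39. A second MCAO loop of Lrrc4c, of 26 PETs at 372 to 1278 kb from the gene start, had the same sham loop as its nearest partner. Loops over 1 Mb inside Lrrc4c numbered 1 in sham and 3 in MCAO. Ptprn2, a phosphatase-like protein of secretory vesicles, had 53 and 10 PETs (log2 ratio -2.62). Summed anchor widths at Lrrc4c were 295 kb (sham) and 134 kb (MCAO), and 165 and 20.1 kb at Ptprn2, so in both genes the list with fewer PETs had much narrower anchors. Cacna1c, which encodes the pore of an L-type calcium channel, had 11 sham and 47 MCAO PETs (log2 ratio 1.88) at anchors of 25.4 and 60.7 kb. Dst, the cytoskeletal linker dystonin, had 10 and 29 at anchors of 9.18 and 48.7 kb. Spata13, a guanine nucleotide exchange factor, had 54 and 36, and Robo1 had 42 and 11 at a loop and 40 and 24 at another.

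Some of the strongest loops had no such partner. Camta1 had a sham loop of 47 PETs at 51 to 465 kb from the gene start with no partner in MCAO, whose strongest Camta1 loop, of 31 PETs, joined 318 and 686 kb. Ppargc1a, a transcriptional coactivator of mitochondrial genes, had 1 intragenic MCAO loop of 44 PETs and none in sham. Loops of this range inside Ppargc1a with a gene end at an anchor, left out by the rule, numbered 1 in sham and 0 in MCAO. Magi2, a synaptic scaffold, had an MCAO loop of 45 PETs over 992 kb, and its sham partner of 59 PETs was longer than 1 Mb and so outside the distance limit.

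**Figure D5:**
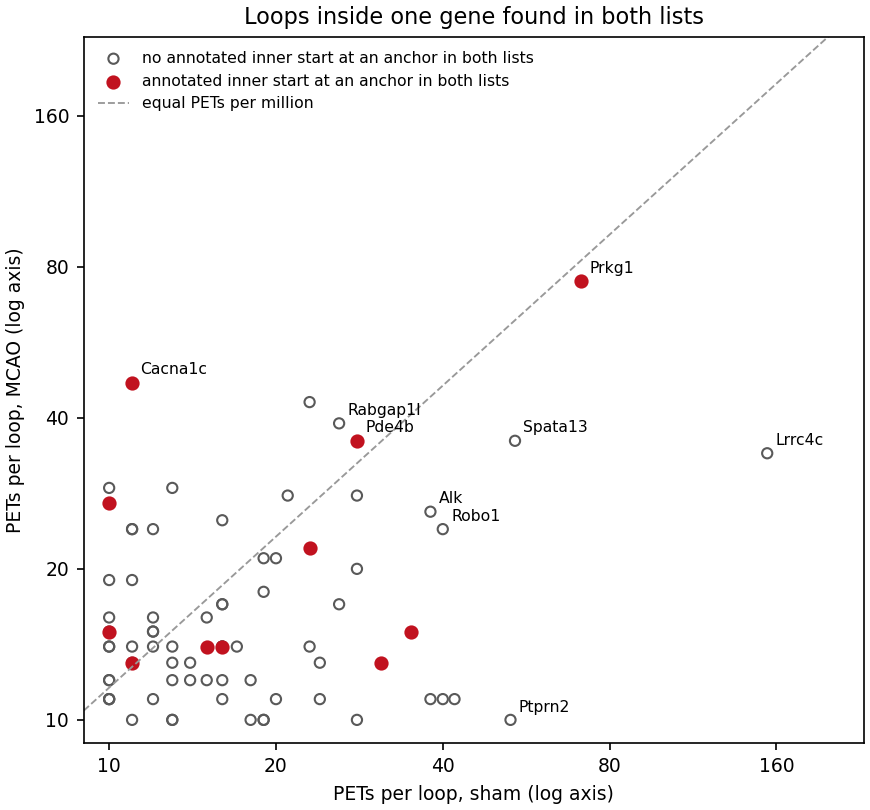
PETs in the MCAO library against PETs in the sham library (log axes) for the 79 intragenic loops matched to each other in both lists, with the dashed line at equal PETs per 1000000. Filled red points have an annotated inner start of the gene in an anchor in both lists. Prkg1 lies near the line with 71 and 75 PETs, Cacna1c above it with 11 and 47, and Lrrc4c and Ptprn2 far below it. Anchor widths differ between the lists and are not drawn.

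Annotated inner starts of the host gene were counted in the anchors, since the choice of loops removed gene ends but not inner starts. The RefSeq start table held 351 of the 456 genes, with 259 inner starts over 190 Mb, or 1.36 per Mb. Anchors held 2.67 per Mb in sham and 2.98 in MCAO. A loop with such a start at an anchor was 48 of 507 in sham, 9.47% (7.06 to 12.4), and 50 of 453 in MCAO, 11% (8.30 to 14.3). Loops found in both lists had 4.16 and 5.41 starts per Mb of anchor and loops found in 1 list 2.31 and 2.38. The matched Elavl2 loops alone held 5 starts in each list. Counted as loops with a start per Mb of anchor, the values were 3.00 and 3.61 against 1.97 and 2.26, a smaller gap. In shares of loops they were 15.1% and 17.1% against 8.31% and 9.70%, with overlapping intervals. In MCAO the share was 5.13% (2.49 to 9.23) at 10 or 11 PETs and 22.2% (12.7 to 34.5) at 20 or more, and in sham 9.28% and 10.5%. The 63 MCAO loops of 20 or more PETs covered 5.32 Mb of anchor and the 195 of 10 or 11 PETs 6.19 Mb, so the better supported loops had wider anchors. Per Mb of anchor, loops with a start numbered 1.61 at 10 or 11 PETs, 3.12 at 12 to 19 and 2.63 at 20 or more in MCAO, and 2.89, 2.37 and 1.16 in sham. Scaled in this way the sham value fell with PETs and the MCAO value had no steady direction.

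The matched loops at the 5 inner starts shown above had different balances of PETs. The Prkg1 loop had 71 sham and 75 MCAO PETs, and the Adgrb3 loop (an adhesion receptor bound by C1q-like proteins) 23 and 22. The Pde4b loop, of a second cyclic AMP phosphodiesterase, had 28 and 36. The Cacna1c loop had 11 and 47, and the Elmo1 loop, of an activator of Rac, 35 and 15. The other 6 genes were Gpm6a (31 and 13), Gse1 (10 and 27), Elavl2 (16 and 14), Cdh12 (15 and 14), Stim1 (10 and 15) and Dpp6 (11 and 13). Inner starts thus stood at loops with more PETs in MCAO, with more in sham and with similar numbers, and the widths of the anchors differed too. Ends of noncoding genes were less frequent at intragenic anchors than at anchors of other loops without gene ends, 9.86 against 17.5 per Mb in sham and 10.4 against 19.3 in MCAO.

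Genes were also described by function, from 14 lists. The lists were chosen with earlier results of these data known, so their shares are descriptive only. Some genes, such as Dlg2, stand in more than 1 list and count in each. Of 396 listed genes of at least 100 kb 184 had an intragenic loop, 46.5%, against 19.7% of all genes of that length. The listed genes are longer, with a median of 329 kb. At 100 to 250 kb 9.68% of listed and 4.84% of other genes had a loop, at 250 to 500 kb 50% and 36.0%, and at 500 to 750 kb 74.4% and 70.6%. At 750 to 1000 kb 33 of 33 listed and 14 of 17 other genes had a loop. All 55 genes of at least 1000 kb, 43 listed and 12 others, had a loop in 1 library or both. The 184 genes held 349 sham and 319 MCAO loops, with more in MCAO for 70, more in sham for 77 and equal numbers for 37. The median difference was 0 loops, as over all 456 genes.

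Among synaptic adhesion genes 25 of 43 had a loop, with 77 in sham and 68 in MCAO, more in MCAO for 8 genes and more in sham for 12. Synaptic release and scaffold genes had 29 and 32 loops in 15 of 35 genes, including Dlg2, Magi2 and Sntg1. Cadherins and catenins had 26 and 24 in 13 of 26 genes, among them Cdh12 (6 and 3) and Pcdh15 (2 and 5). Axon guidance genes had 27 and 25 in 15 of 37, among them Robo2 (4 and 2) and the netrin receptor Dcc (4 and 3). These 4 lists had close totals in both libraries as listed. Among loops of 15 PETs or more the synaptic adhesion list had 22 sham and 31 MCAO loops, release and scaffold genes 7 and 9, cadherins and catenins 8 and 5 and axon guidance genes 10 and 5, so the direction turned for synaptic adhesion.

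Receptor and channel lists are shorter. Glutamate receptor genes had 20 loops in sham and 14 in MCAO in 12 of 17 genes, with Grm7 at 4 and 4 and Grm3 at 0 and 3. GABA receptor genes had 8 and 1 in 4 of 7 genes, from Gabrb1 (3 and 0), Gabrg3 (3 and 0), Gabbr2 (2 and 0) and Gabrb2 (0 and 1). None of the 8 sham GABA receptor loops reached 15 PETs, and the MCAO loop did. Potassium channel genes and their partners had 23 and 24 loops in 13 of 24 genes, including Kcnip4 (5 and 5) and Kcnma1 (4 and 4). Sodium and calcium channel genes had 9 and 12 in 9 of 25, of which Cacna1d had 3 and 4. Restricted to 15 PETs or more the numbers were 5 and 7 for glutamate receptors, 3 and 9 for potassium channels and partners and 2 and 3 for sodium and calcium channels, so the direction turned for glutamate receptors.

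Signalling and regulatory genes and the remaining lists followed. Kinase and cyclic nucleotide genes had 37 and 38 loops in 23 of 51 genes, with Pde4d at 4 and 10, the ErbB ligand gene Nrg1 at 2 and 5 and Nrg3 at 4 and 0. Transcription factors and regulators had 25 and 31 in 22 of 59, with Auts2 and Camta1 contributing 3 sham and 12 MCAO loops. From 15 PETs up this list had 9 and 5, the opposite direction, and the kinase and cyclic nucleotide list 10 and 14. RNA-binding and splicing genes had 10 and 10 in 9 of 18, and extracellular matrix and heparan sulfate genes 10 and 11 in 9 of 35. From 15 PETs up these were 4 and 3, and 2 and 5. Genes at common fragile sites, which are among the longest, had 94 and 68 in 24 of 27, with more in sham for 15, more in MCAO for 6 and a median difference of -1 loop. At 15 PETs or more the fragile site genes had 24 sham and 23 MCAO loops. None of the 3 genes of at least 100 kb in the list of astrocyte, oligodendrocyte, microglia and endothelial genes had an intragenic loop. Their median length was 133 kb, and of all genes of 100 to 250 kb only 2.65% had a loop in sham and 3.21% in MCAO, so nothing can be read from that count.

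The long genes also held loops outside the limits of distance or of gene ends. Loops under 100 kb inside a gene numbered 497 in sham and 377 in MCAO, and 3.02% and 3.71% of them were shared. Loops of 100 kb to 1 Mb inside a gene with a gene end at an anchor numbered 281 in sham and 414 in MCAO, and 37.0% and 31.4% were shared. Loops over 1 Mb numbered 18 and 8. Loops inside genes that touched a gene end were thus more numerous in MCAO, while those that did not were fewer in each of the 3 distance ranges, as listed.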

How the data were processed

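Per the labels' protocols, Hi-C of frozen cortex used the Arima reagents. Per the submitters' processing notes, reads were handled with HiC-Pro and Bowtie2 on mm10 (versions not stated). Which caller made the loops is not given in the sources used here. Deposited counts are PETs per loop and reads per anchor, not scaled for depth. The deposited signal called density gave the library totals, since it was checked to be PETs per kb of anchor per 1000000 PETs. Each loop also carries the authors' enrichment ratio, P2LL ratio, p-values and FDR (0.05 at most), which the authors deposited without a definition, and none served as a test here. Only loops of at least 10 PETs are listed, so a missing loop may lie just below.

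Gene bodies came from a RefSeq table of GRCm38.p6, the assembly of mm10, with 20665 autosomal protein-coding genes. Strand and starts came from RefSeq promoter windows. Genes without a window there have no strand and are measured from the lower coordinate. Shares have Clopper-Pearson intervals, ratios of counts exact binomial intervals and medians order-statistic intervals, all at 95%. Whether PETs are independent molecules is not known. Loops of a library are not replicates, so no p-value is given. A loop within several genes counts at each. Membership and matching were tested on simulated data. Genes named were the 12 with most loops, the 8 with the largest difference in each direction, the genes of the 5 loops with most PETs in each library and list members with most loops. Other matched pairs, list members and the genes with a difference at 15 PETs were named after their values were seen. Some genes that this rule selects are left out of the text and plots. The loops and the gene lists were chosen with earlier results of these data known. Alternatives covered the window at gene ends, the PET minimum and the sharing rule. Python 3.11.15, numpy 2.4.6, pandas 2.3.3, scipy 1.17.1 and matplotlib 3.10.9 were used.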

Additional observations from a re-analysis of the deposited data

Results flagged for a closer look

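Loops of chromosome X were outside the autosomal comparisons. By the same rule 16 of 232 mid-range X loops in sham, 6.90% (3.99 to 11), and 4 of 180 in MCAO, 2.22% (0.609 to 5.59), lay inside a single gene. Dmd, which encodes dystrophin, had 6 in sham and 0 in MCAO, Il1rapl1 had 2 and 1, Il1rapl2 had 2 and 2, and Frmpd4 and Tenm1 had 2 and 0 each. The sham loops had 10 to 42 PETs and the MCAO loops 10 to 12.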

How the results depend on the processing

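With no window at gene ends intragenic loops were 6.46% of mid-range loops in sham and 5.54% in MCAO, and with a window of 10 kb 5.35% and 4.57%. At 15 PETs or more there were 190 sham and 193 MCAO loops (4.43% and 3.83% of mid-range loops) in 142 and 141 genes, 63 in both, with medians of 19 and 18 PETs and of 249 and 259 kb, and 2 genes had at least 3 more loops in MCAO and 4 in sham. With the MCAO minimum at 12 PETs, 328 MCAO loops remained (4.41%), with medians of 15 PETs and 218 kb. Then 13.4% of sham and 22.3% of MCAO loops were shared, the ratio of numbers was 0.517, and 3 genes had at least 3 more in MCAO and 37 in sham. At that minimum Arhgap26 went from 2 more in MCAO to 1 more in sham, and at 15 PETs Lsamp went from 2 more in sham to 1 more in MCAO. With midpoints within 0.5 anchor width 9.76% and 9.74% of loops were shared, and with overlapping anchors 12.4% and 12.3%. The cause of these shifts was not tested beyond the number of loops each setting keeps. The PET minimum limits the depth at which a missing loop can be read as absent. No paired analysis was possible because each group has 1 library.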
